A study of Homo sapiens with 6 samples.

Results

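The genes described here are the chaperones and heat shock genes of the cytosol and the mitochondria: the HSP90, HSP70 and small heat shock protein families, the J-domain proteins, the chaperonins, the BAG co-chaperones and the transcription factors HSF1 and HSF2. Members were chosen by a rule on symbols, set with earlier results of these data known. It took protein-coding genes named HSPA, HSPB, HSPD, HSPE, HSPH, HSP90A, DNAJA, DNAJB, DNAJC, CCT or BAG with a number, plus TCP1, HSF1, HSF2, STIP1, AHSA1, FKBP4, CHORDC1 and CRYAB. The chaperones of the endoplasmic reticulum HSPA5, HSPA13, DNAJB9, DNAJB11, DNAJC3 and DNAJC10, and the nucleotide exchange factor HSPBP1, were left out by the same rule. This gave 87 of the 46427 genes in the table, or 87 of its 19672 protein-coding genes.

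The cells were MDA-MB-231/RR, a radiation-resistant form of MDA-MB-231, which is a human line of triple-negative breast cancer, and their total RNA was sequenced. The 3 control and the 3 co-treated samples were all of this resistant line, so the parental line is no part of the comparison. Co-treated cells received ortho-topolin riboside (oTR), a cytokinin riboside of plant origin, together with melatonin, the pineal hormone. Doses, treatment times and what the controls received were not stated in the labels, and neither compound was sequenced alone, so the share of each cannot be told apart. Whether samples of 1 group were grown as separate cultures is not stated, and the p-values therefore cover only how far these particular samples differ, which may be a technical spread. All cells grew in medium with heat-inactivated serum and were detached with trypsin before freezing, per the labels' protocols.

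The 6 libraries held between 50569611 and 72309015 estimated counts each, and the first principal component of all tested genes separated the groups and took 41.0% of the variance. Markers of the line were present: VIM, EGFR, CD44, AXL and CAV1 summed to between 3186 and 3339 TPM (the deposited level per transcript length) in the controls and between 3593 and 3938 TPM in the co-treated libraries. Of 7 genes listed as low in the line, ESR1, PGR and CDH1 were at or near 0 in every library, while KRT19 stood at 148 TPM and ERBB2 at 29.2 TPM in the controls, so that KRT19 was not low; EPCAM and GATA3 went from 0.426 to 0.181 TPM and from 4.25 to 3.26 TPM and were called lower (adjusted p = 0.0415 and 0.00372). The leukocyte genes PTPRC, CD3E, CD14 and CD79A summed to at most 0.455 TPM in any library, with PTPRC at 0, and 3 endothelial genes to at most 0.428 TPM. In bulk RNA, fewer cells of a kind and less RNA per cell cannot be told apart.

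Molecular chaperones bind unfolded proteins and help them fold. HSP70 proteins do this in cycles of ATP hydrolysis that J-domain proteins start and nucleotide exchange factors, among them the BAG proteins and HSPH1, end; HSP90 takes over folding clients from HSP70 through the adaptor STIP1, and the chaperonins enclose a folding protein in a barrel. When unfolded proteins accumulate, HSF1 is released from chaperones, forms trimers and binds heat shock elements, which are inverted repeats of the unit GAA, ahead of genes such as HSPA1A, HSPA1B, DNAJB1, HSPB1 and HSP90AA1. Cancer cells commonly hold high chaperone levels, and HSPA1A and HSPA1B differ from their constitutive relative HSPA8 in being strongly inducible by heat and proteotoxic stress.

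The promoters of the members are shown first because both behaviours described below, a rise of HSPA1A and HSPA1B and a fall of HSP90 and the chaperonins, occur among genes known for the same regulator. RefSeq promoter windows (GRCh38.p14, 250 bases before to 50 after the annotated start) were found for 75 of the 87 members, 102 windows in all. Each window was searched on both strands for the heat shock element of 3 units without mismatch (GAANNTTCNNGAA or TTCNNGAANNTTC), for a shorter form of 2 units that lies inside it (GAANNTTC or TTCNNGAA), and for the E-box CACGTG. In the windows below, given 5′ to 3′ on the gene's own strand, capitals mark every match to the 2-unit form and thus also each full element. The first 3 belong to genes that were higher in co-treated cells, the next 3 to genes that were lower or not called and that hold a full element.
HSPA1A promoter, chr6:31815293-31815592, strand +: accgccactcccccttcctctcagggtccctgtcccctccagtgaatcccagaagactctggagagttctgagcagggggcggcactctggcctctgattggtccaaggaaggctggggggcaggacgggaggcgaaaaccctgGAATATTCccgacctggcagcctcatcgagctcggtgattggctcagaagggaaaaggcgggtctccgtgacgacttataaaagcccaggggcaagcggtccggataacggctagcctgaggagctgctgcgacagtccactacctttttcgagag
HSPA1B promoter, chr6:31827488-31827787, strand +: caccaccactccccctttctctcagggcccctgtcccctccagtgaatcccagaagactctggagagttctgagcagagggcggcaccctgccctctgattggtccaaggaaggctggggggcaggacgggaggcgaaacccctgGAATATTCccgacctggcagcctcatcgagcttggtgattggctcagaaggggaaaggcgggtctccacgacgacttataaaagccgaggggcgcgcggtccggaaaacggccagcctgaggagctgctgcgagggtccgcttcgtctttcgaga
DNAJB1 promoter, chr19:14518348-14518647, strand -: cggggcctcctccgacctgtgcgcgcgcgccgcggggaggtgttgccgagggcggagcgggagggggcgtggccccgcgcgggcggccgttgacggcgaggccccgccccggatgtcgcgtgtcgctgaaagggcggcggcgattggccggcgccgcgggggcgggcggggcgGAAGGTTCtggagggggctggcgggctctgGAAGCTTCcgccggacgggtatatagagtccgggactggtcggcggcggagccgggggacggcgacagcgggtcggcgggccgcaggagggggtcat
HSP90AA1 promoter, chr14:102086995-102087294, strand -: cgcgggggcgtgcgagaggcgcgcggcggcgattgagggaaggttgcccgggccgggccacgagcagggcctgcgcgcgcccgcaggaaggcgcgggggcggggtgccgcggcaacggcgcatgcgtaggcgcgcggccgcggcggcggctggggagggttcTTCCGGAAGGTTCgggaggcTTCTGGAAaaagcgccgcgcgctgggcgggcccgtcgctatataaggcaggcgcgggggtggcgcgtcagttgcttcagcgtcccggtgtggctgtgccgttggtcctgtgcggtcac
HSPD1 promoter, chr2:197499791-197500090, strand -: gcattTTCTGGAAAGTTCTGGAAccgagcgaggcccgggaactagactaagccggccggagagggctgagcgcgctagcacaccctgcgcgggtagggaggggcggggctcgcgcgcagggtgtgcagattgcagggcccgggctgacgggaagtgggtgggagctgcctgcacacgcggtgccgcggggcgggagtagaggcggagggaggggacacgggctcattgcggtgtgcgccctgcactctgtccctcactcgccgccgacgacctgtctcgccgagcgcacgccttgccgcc
HSPA8 promoter, chr11:123062087-123062386, strand -: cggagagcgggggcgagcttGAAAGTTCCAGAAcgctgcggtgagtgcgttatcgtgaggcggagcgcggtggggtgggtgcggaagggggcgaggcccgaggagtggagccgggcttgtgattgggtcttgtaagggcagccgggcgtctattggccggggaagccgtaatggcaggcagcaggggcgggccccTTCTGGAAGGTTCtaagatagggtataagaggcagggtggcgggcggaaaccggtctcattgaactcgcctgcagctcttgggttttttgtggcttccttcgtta

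The HSPA1A and HSPA1B windows had equal letters at 277 of 299 aligned bases (92.6%), and the starts of the genes lie 12195 bases apart on the same strand of chromosome 6. The exact 3-unit element stood in 8 of the 102 member windows (7.84%) and in 172 of 35116 windows of all genes (0.490%). Counted by gene, it stood in 10.7% of the members with a window and in 0.608% of all genes with a window. Of the members with a window, it was found in 5 of 25 that fell (CHORDC1, DNAJA1, HSP90AA1, HSP90AB1 and HSPD1), in 3 of 34 that were not called (DNAJB6, HSPA6 and HSPA8) and in 0 of 8 that rose. For HSP90AB1 the window with the match belongs to a start that carried 0.127% of its control TPM, whereas for HSP90AA1, HSPD1, HSPA8 and DNAJA1 it belongs to the start with nearly all of it. The 2-unit form stood in 30 member windows (29.4%) against 13.5% of all windows. Counted by gene, it stood in 38.7% of the members with a window and in 16.2% of all genes with a window. By call, these were 6 of the 8 members that rose, 13 of the 25 that fell and 6 of the 34 not called. These are matches of letters, which describe the windows and mark neither a bound site nor a cause; a window without a match says only that those letters are not in it.

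**Figure D1:**
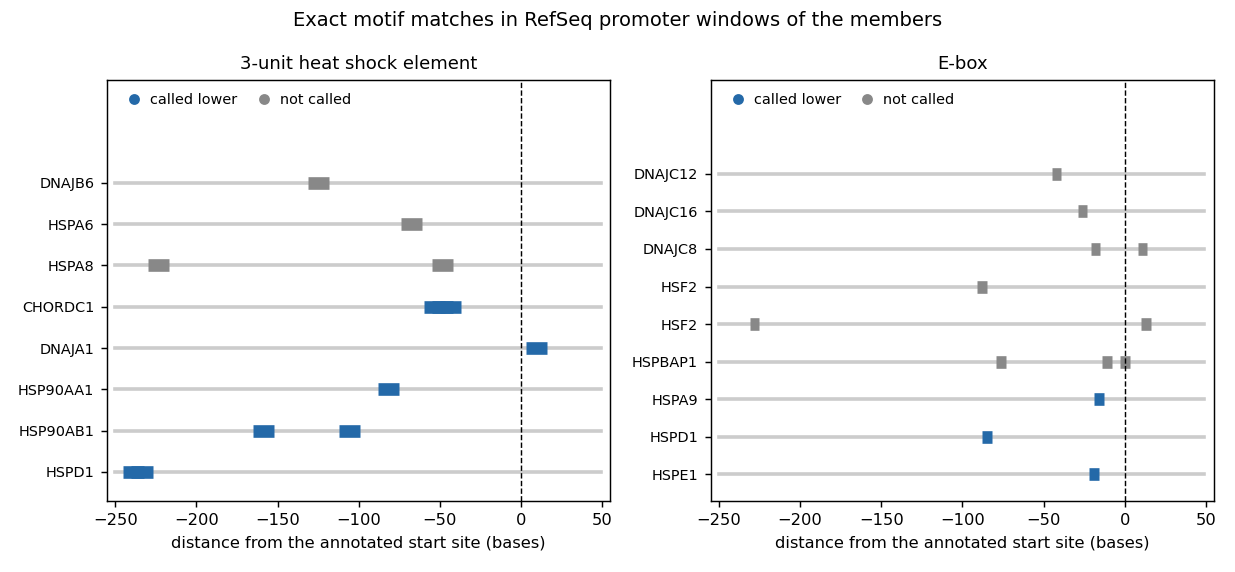
Position of each exact match in the promoter windows of the members that hold one, for the 3-unit heat shock element (left) and the E-box CACGTG (right); the x axis is the distance from the annotated start site in bases, grey lines span the window, and colours give the call of the gene. Matches of the 3-unit element lie in 5 genes called lower and 3 not called, and those of the E-box in 3 called lower and 5 not called.

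The E-box CACGTG, the core letters bound by MYC with MAX and by related factors, stood in 9 member windows (8.82%) and in 7.26% of all windows. By gene, it stood in 10.7% of the members with a window and in 8.8% of all genes with a window. Its 3 holders among the members that fell, HSPA9, HSPD1 and HSPE1, all encode mitochondrial matrix chaperones, and 5 of the 34 members not called hold it too. The E-box of HSPD1 and that of HSPE1 are the same copy, seen in windows that overlap by 204 bases, of which the HSPD1 window belongs to a start with 0.406% of its control TPM. HSPD1 and HSPE1 are neighbours read in opposite directions from starts that lie 539 bases apart for the HSPD1 start with 99.6% of its control TPM, and the full heat shock element printed above for HSPD1 lies between these starts. The HSPE1 window is given here with its E-box in capitals.
HSPE1 promoter, chr2:197500129-197500428, strand +: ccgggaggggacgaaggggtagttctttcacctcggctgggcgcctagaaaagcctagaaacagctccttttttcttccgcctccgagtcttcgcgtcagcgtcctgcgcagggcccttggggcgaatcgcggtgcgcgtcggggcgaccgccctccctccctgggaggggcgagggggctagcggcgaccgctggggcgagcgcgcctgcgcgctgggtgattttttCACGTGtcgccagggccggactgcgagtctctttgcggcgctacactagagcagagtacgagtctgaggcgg

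Co-treated cells had more mRNA of the inducible HSP70 pair HSPA1A and HSPA1B and of a few J-domain proteins, and less of HSP90, its co-chaperones, the cytosolic and mitochondrial chaperonins, mitochondrial HSP70 and the small heat shock proteins HSPB1 and HSPB8. The constitutive HSP70, HSPA8, which was the most abundant member per transcript length, was not called in either direction. Of the 87 members, 75 held enough counts to be tested, and with edgeR's quasi-likelihood test (Benjamini-Hochberg adjusted p under 0.05 over 16557 genes, the rule for every gene called higher or lower here) 10 rose and 29 fell. Among all tested genes 16.6% rose and 17.1% fell (33.7% in either direction), against 13.3% and 38.7% of the tested members. Their median log2 fold change, co-treated against control, was -0.04, with a range from -0.75 to 1.19, beside 0.0024 for all genes. The groups did not overlap in 51 members, 19 of them higher and 32 lower in co-treated cells, a share to be read against 47.4% of all tested genes.

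How many members fell depended on the scale, as did the share of all genes that fell. With library size alone as the scaling, which moved the median of all genes to 0.06 on the log2 scale, 20 members rose and 25 fell (26.7% and 33.3%), beside 23.0% and 12.5% of all tested genes. On log2(TPM + 1), which moved that median to 0.09, 25 rose and 19 fell (33.3% and 25.3%), beside 27.3% and 8.09% of all tested genes. No member called in either direction was called in the other under any of the alternatives tried. The remaining 12 members were not tested: DNAJB3, DNAJB7, DNAJB8, HSPB2, HSPB3, HSPB7 and HSPB9 were at 0 in every library, and CRYAB, HSPB6, HSPA12B, DNAJA4 and DNAJB13 reached at most 12 counts in a library. A count of 0 allows up to 3 counts, or 0.0415 to 0.0593 CPM in these libraries, and this covers counting error only. CRYAB, the abundant small heat shock protein of lens and muscle, had 4 counts over all 6 libraries.

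**Figure D2:**
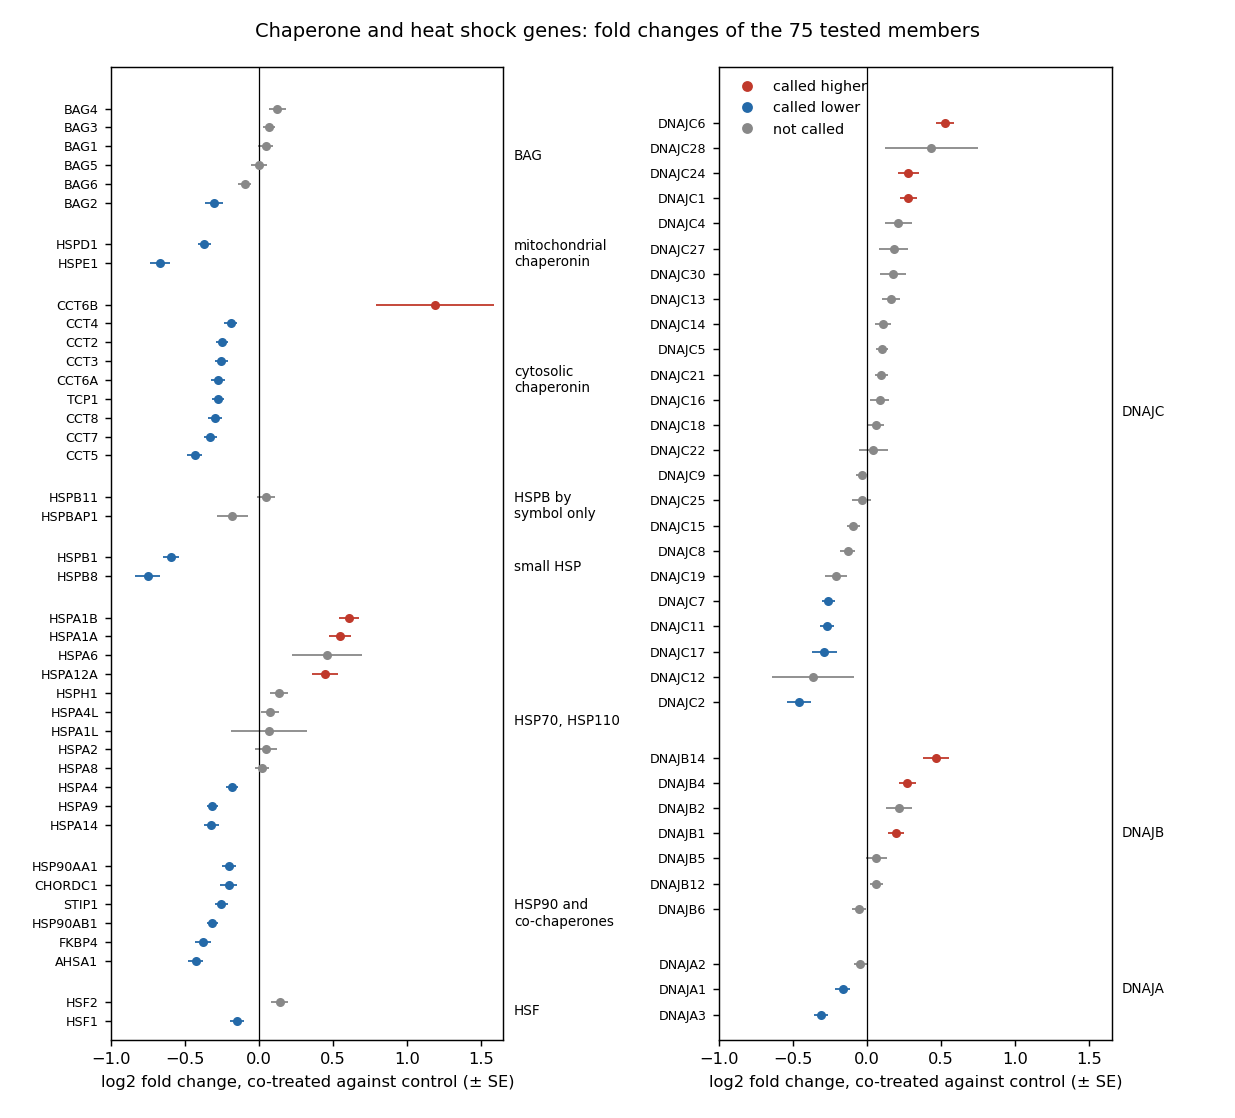
Log2 fold change of each of the 75 tested members, co-treated against control, with the standard error of the edgeR fit as a bar; members are grouped by role and coloured by call. The HSP90 and chaperonin groups lie left of 0 except for CCT6B, while the HSP70 and J-domain groups lie on both sides.

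The pair of inducible HSP70 genes rose most among the abundant members. Levels of single genes are given as CPM, counts scaled to the normalized library size, in replicates 1, 2 and 3 of each group, or as mean ± SD (n = 3), and SE is the standard error of the log2 fold change. HSPA1B (gene 3304, chr6:31827738-31830254) stood at 181, 164 and 199.8 CPM in the controls and 266, 281 and 283 CPM in the co-treated libraries, a 1.52-fold rise (log2 fold change 0.61, SE 0.07, adjusted p = 0.000101). HSPA1A (gene 3303, chr6:31815543-31817942) stood at 108, 92.9 and 118 CPM without treatment and 148, 159 and 158 CPM with it (log2 fold change 0.55, SE 0.08, adjusted p = 0.000382). In both genes every co-treated library lay above every control. Their proteins are almost identical and reads that match both were apportioned by an estimate, so the split between them is uncertain. Summed per library, a quantity chosen after their values were seen, the pair gave 288 ± 30.8 CPM in the controls and 431 ± 15.5 CPM in the co-treated libraries (log2 fold change 0.59, SE 0.07, adjusted p = 0.000156). HSPA1L, a testis form of HSP70 that lies 260 bases from HSPA1A, was not called (log2 fold change 0.06, SE 0.26, adjusted p = 0.87). Per transcript length, HSPA1A and HSPA1B together amounted to 8.78%, 8.35% and 9.03% of the TPM of HSPA8 in the controls and to 12.4%, 13.5% and 13.0% in the co-treated libraries.

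HSPA8 (gene 3312, chr11:123057489-123062366), which serves folding, clathrin uncoating and chaperone-mediated autophagy in unstressed cells, measured 3005, 2807 and 3222 CPM in the controls and 3056, 2989 and 3091 CPM in the co-treated libraries (log2 fold change 0.02, SE 0.05, adjusted p = 0.822). The groups overlapped, and the sign of this small difference turned without control replicate 2 (-0.03). HSPH1 (gene 10808, chr13:31134973-31162388), the HSP110 that exchanges nucleotide on HSP70, was at 447, 420.4 and 425 CPM in the 3 controls against 521, 446 and 452 CPM after co-treatment (log2 fold change 0.13, SE 0.06, adjusted p = 0.113). Its groups overlapped, with 1 control just above the lowest co-treated value, and on log2(TPM + 1) it passed the test (0.32, adjusted p = 0.015). HSPA6, which human cells make only under strong stress, stayed under 1 CPM in every library (log2 fold change 0.46, SE 0.24, adjusted p = 0.161).

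The members of the HSP70 family that fell were the mitochondrial HSPA9 and the cytosolic HSPA14 and HSPA4. HSPA9 (gene 3313, chr5:138553756-138575401), which pulls proteins through the inner membrane and folds them in the matrix, measured 801, 782 and 792 CPM in the controls and 645, 619.8 and 643 CPM in the co-treated libraries (log2 fold change -0.32, SE 0.04, adjusted p = 0.000204). HSPA14, the HSP70 of the ribosome-associated complex, measured 54.8, 57.8 and 57.1 CPM without treatment and 45.5, 43.2 and 46.8 CPM with it (log2 fold change -0.32, SE 0.05, adjusted p = 0.000705). HSPA4, an HSP110 relative, fell by less (log2 fold change -0.18, SE 0.04, adjusted p = 0.00523) and was not called on log2(TPM + 1) (-0.05, adjusted p = 0.305). None of these 3 genes overlapped between groups. HSPA12A, a distant relative of the family, rose from a low level, 5.63 ± 0.418 to 7.66 ± 0.364 CPM (log2 fold change 0.45, SE 0.09, adjusted p = 0.00334). In all, 3 of the 12 tested HSP70 genes rose and 3 fell, with a median log2 fold change of 0.07. This is 25.0% each way in a small family, beside 16.6% and 17.1% of all tested genes. The summed TPM of the HSP70 genes went from 3915 ± 162 to 4369 ± 101 TPM, most of it HSPA8. Their summed CPM overlapped, with 5122, 4848 and 5339 in the controls and 5165, 5004 and 5154 in the co-treated libraries.

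**Figure D3:**
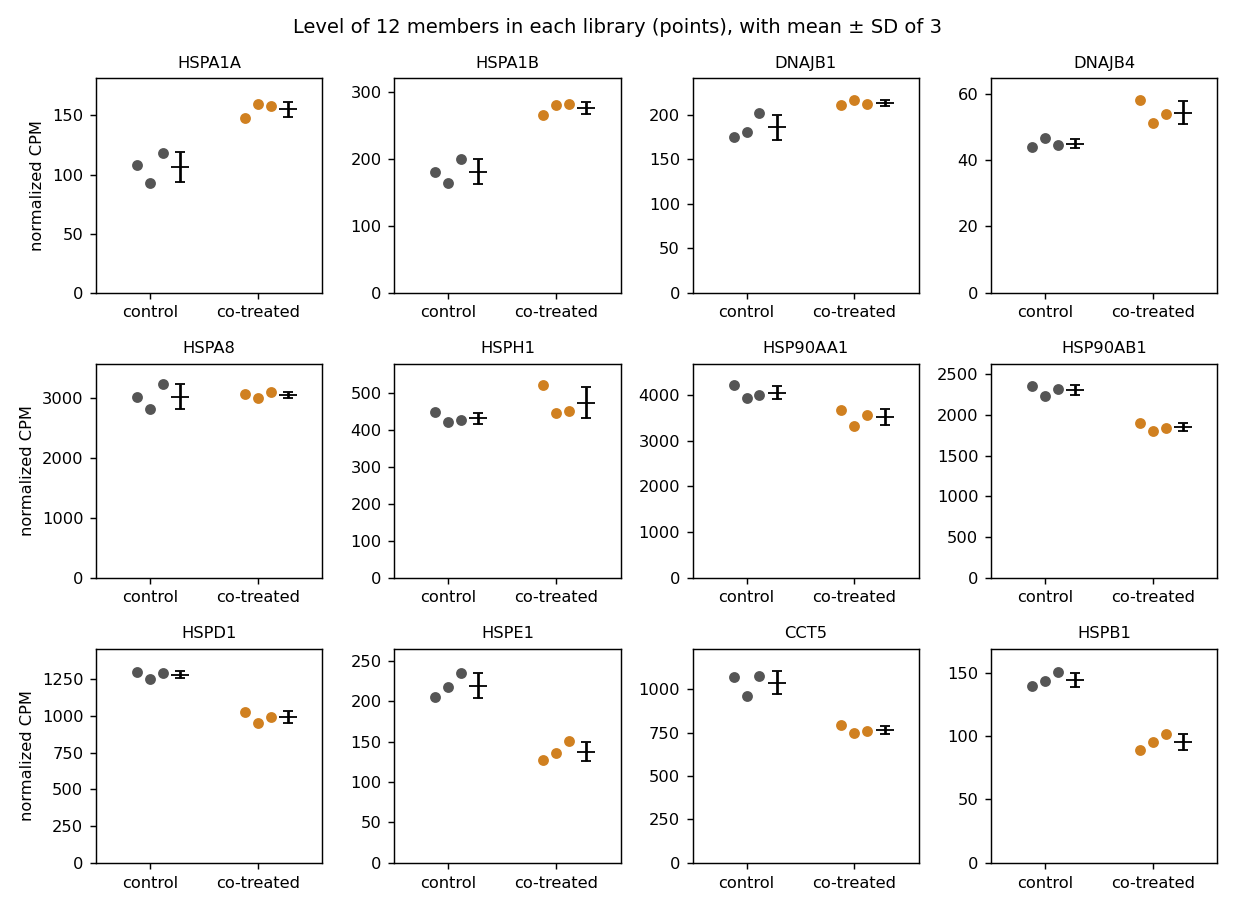
Normalized CPM of 12 members in each of the 3 control and 3 co-treated libraries (points), with mean ± SD of each group (bars) on an axis that starts at 0. HSPA1A, HSPA1B, DNAJB1 and DNAJB4 are higher and HSP90AA1, HSP90AB1, HSPD1, HSPE1, CCT5 and HSPB1 lower in every co-treated library than in any control, while HSPA8 and HSPH1 overlap.

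All 6 genes of the HSP90 machinery among the members fell: both cytosolic HSP90 genes and 4 co-chaperones, with a median log2 fold change of -0.29. Beside this count, 17.1% of all tested genes fell. At 100 TPM or more, the level of all of them but CHORDC1, 52.0% of all tested genes fell, with a median of -0.15. HSP90AA1 (gene 3320, chr14:102080742-102139749), the inducible form, measured 4217, 3936 and 4009.9 CPM in the controls and 3673, 3317 and 3572 CPM in the co-treated libraries, and fell by 13.2% (log2 fold change -0.20, SE 0.04, adjusted p = 0.00512). HSP90AB1 (gene 3326, chr6:44246166-44253888), the constitutive form, measured 2350.1, 2234 and 2321 CPM in the 3 controls against 1904, 1804 and 1838 CPM after co-treatment, and fell by 19.7% (log2 fold change -0.32, SE 0.04, adjusted p = 0.000187). In each the highest co-treated library lay below the lowest control. Per length, the ratio of HSP90AA1 to HSP90AB1 TPM was 1.42, 1.39 and 1.37 in the controls and 1.52, 1.45 and 1.54 in the co-treated libraries, without overlap. On log2(TPM + 1) the fall of HSP90AB1 kept its call and that of HSP90AA1 did not (-0.07, adjusted p = 0.399).

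Among the co-chaperones AHSA1, the activator of the HSP90 ATPase, fell most. It measured 178, 167 and 189 CPM in the controls and 130.1, 129 and 137 CPM in the co-treated libraries (log2 fold change -0.43, SE 0.05, adjusted p = 0.000212). STIP1 (HOP), which holds HSP70 and HSP90 together while a client passes between them, measured 488, 468 and 502 CPM without treatment and 401, 406 and 414 CPM with it (log2 fold change -0.25, SE 0.04, adjusted p = 0.00123). FKBP4, the immunophilin of steroid receptor complexes, went from 238 ± 14.4 to 183 ± 7.47 CPM (log2 fold change -0.38, adjusted p = 0.000457). No co-treated library reached a control in any of the 3. CHORDC1 (Morgana), a co-chaperone with a zinc-binding domain, had a log2 fold change of -0.21 (adjusted p = 0.0174). Its call was lost without control replicate 1 (-0.20, adjusted p = 0.0556), without co-treated replicate 2 (-0.14, adjusted p = 0.0665), on log2(TPM + 1) (-0.07, adjusted p = 0.407) and with library size alone. The TPM of the group summed from 5534 ± 183 to 5057 ± 231 TPM.

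The cytosolic chaperonin (TRiC or CCT), a barrel of paired 8-subunit rings that folds actin, tubulin and many cell cycle proteins, fell as a set of subunits. All 8 genes of the general complex, TCP1, CCT2, CCT3, CCT4, CCT5, CCT6A, CCT7 and CCT8, were lower, by log2 fold changes between -0.19 for CCT4 and -0.44 for CCT5. Among all tested genes 17.1% fell, and 52.0% of those at 100 TPM or more, the level of all 8. CCT5 (gene 22948, chr5:10249921-10266412) measured 1072, 959 and 1076 CPM in the controls and 792, 746 and 759 CPM in the co-treated libraries (log2 fold change -0.44, SE 0.05, adjusted p = 0.00015). TCP1, the alpha subunit, measured 511, 493 and 511 CPM in the 3 controls against 423, 405 and 419.9 CPM after co-treatment (log2 fold change -0.28, SE 0.04, adjusted p = 0.000575). None of the 8 overlapped between groups. On log2(TPM + 1), 5 of them kept the call, and CCT3, CCT4 and CCT6A did not (adjusted p = 0.0573, 0.356 and 0.0521). Summed TPM of the chaperonin went from 4871 ± 101 to 4348 ± 107 TPM.

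CCT6B, the testis form of the zeta subunit, went the other way at a trace level. It measured 0.324, 0.421 and 0.115 CPM in the controls and 0.551, 0.755 and 0.654 CPM in the co-treated libraries (log2 fold change 1.19, SE 0.40, adjusted p = 0.0399). The groups did not overlap, but the call was lost without control replicate 1 (1.27, adjusted p = 0.0701), control replicate 3 (0.79, adjusted p = 0.096) or any single co-treated library (adjusted p between 0.0516 and 0.118).

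The mitochondrial chaperonin fell in both of its parts. HSPD1 (HSP60, gene 3329, chr2:197486584-197500274), the barrel, measured 1303, 1254 and 1291 CPM in the controls and 1029, 952 and 997 CPM in the co-treated libraries (log2 fold change -0.37, SE 0.04, adjusted p = 0.000121). HSPE1 (HSP10, gene 3336, chr2:197500379-197503449), the lid, measured 205, 217 and 235 CPM without treatment and 127, 136 and 151 CPM with it (log2 fold change -0.67, SE 0.07, adjusted p = 6.77e-05), and both genes were lower in each co-treated library than in any control. Per length, HSPE1 stood at 0.635, 0.699 and 0.735 of the TPM of HSPD1 in the controls and at 0.497, 0.575 and 0.609 in the co-treated libraries. Copies in the genome could take some of their reads: 15 annotated HSPD1 pseudogenes held 1.34% as many counts as HSPD1, and 20 of HSPE1 held 0.157%. Summed TPM of the pair went from 2043 ± 18.0 to 1599 ± 45.7 TPM.

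The other mitochondrial chaperones were counted as sets that were drawn up after the values were seen. Of 9 tested mitochondrial members, 0 rose and 5 fell: HSPD1, HSPE1, HSPA9, DNAJA3 and DNAJC11. Among all tested genes 16.6% rose and 17.1% fell. At 100 TPM or more, the level of HSPD1, HSPE1 and HSPA9, 52.0% of all tested genes fell. DNAJA3 (TID1), the J-domain partner of HSPA9, measured 104, 108 and 110.2 CPM in the controls and 81.5, 88.9 and 89.1 CPM in the co-treated libraries (log2 fold change -0.31, SE 0.05, adjusted p = 0.000835), without overlap. DNAJC11, a protein of the outer membrane linked to cristae organization, had a log2 fold change of -0.27 (adjusted p = 0.00148). DNAJC15 and DNAJC19, J-domain proteins of the protein import motor, were not called (log2 fold changes -0.09 and -0.21, adjusted p = 0.112 and 0.0547), nor were DNAJC28 and DNAJC30. Of 8 further mitochondrial chaperones and proteases, the HSP90 relative TRAP1, the exchange factor GRPEL1, the iron-sulfur cluster co-chaperone HSCB and the proteases CLPP and LONP1 fell, with 0 rising and a median of -0.33. The same shares of all tested genes stand beside this count, and TRAP1 and LONP1 also averaged 100 TPM or more.

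Both small heat shock proteins that could be tested fell, and by more than most members. HSPB1 (HSP27, gene 3315, chr7:76302673-76304292), which holds unfolding proteins in a soluble form and binds actin filaments, measured 139, 143 and 150.4 CPM in the controls and 89.1, 95.6 and 101 CPM in the co-treated libraries, and fell by 33.9% (log2 fold change -0.60, SE 0.05, adjusted p = 3.68e-05). HSPB8 (HSP22, gene 26353, chr12:119178931-119194746), which works with BAG3 in the autophagy of damaged filaments, measured 9.98, 9.90 and 10.2 CPM in the 3 controls against 5.91, 5.44 and 6.41 CPM after co-treatment, and fell by 40.7% (log2 fold change -0.75, SE 0.08, adjusted p = 0.000113). Every co-treated value was below every control in both, and both kept their call on log2(TPM + 1). The other 6 genes of the family, CRYAB among them, had too few counts. HSPB11, a subunit of the ciliary transport complex that carries the symbol but not the role, and HSPBAP1, which binds HSPB1, matched the symbol rule and were not called (log2 fold changes 0.05 and -0.18).

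J-domain proteins, which bring clients to HSP70 and trigger its ATPase, were the largest family, with 34 of 39 tested. Of these 6 rose and 6 fell, 17.6% each way, close to the 16.6% and 17.1% of all tested genes, with a median log2 fold change of 0.06. By class, 3 of 7 DNAJB genes rose and 0 fell, 2 of 3 DNAJA genes fell and 0 rose, and 3 of 24 DNAJC genes rose and 4 fell. A difference between the classes was not tested. On log2(TPM + 1) the counts were 5 rising and 0 falling DNAJB genes, and 10 rising and 3 falling DNAJC genes, where 27.3% of all tested genes rose and 8.09% fell. DNAJB12 and DNAJB14, and DNAJC1, sit in the membrane of the endoplasmic reticulum, so the group as chosen reaches beyond the cytosol and the mitochondria.

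DNAJB1 (HSP40, gene 3337, chr19:14514764-14530597), the heat-inducible J-domain partner of HSPA1A, measured 175, 181 and 202 CPM in the controls and 211, 216 and 212 CPM in the co-treated libraries (log2 fold change 0.20, SE 0.05, adjusted p = 0.0172). The groups were separate, but the call was lost without control replicate 1 (0.15, adjusted p = 0.0873), without control replicate 2 (0.17, adjusted p = 0.0653) and without co-treated replicate 2 (0.19, adjusted p = 0.0565). DNAJB4, a close relative of DNAJB1, went from 45.0 ± 1.43 to 54.4 ± 3.49 CPM (log2 fold change 0.27, adjusted p = 0.00384). DNAJB14, which helps to clear misfolded membrane proteins, rose most in its class, with 40.0, 37.7 and 32.6 CPM without treatment and 57.0, 48.9 and 46.3 CPM with it (log2 fold change 0.46, SE 0.09, adjusted p = 0.00238). In DNAJB4 and DNAJB14, too, no control reached a co-treated library. DNAJB6, a suppressor of polyglutamine aggregation, showed overlapping values of 197, 192 and 198 CPM in the 3 controls against 197, 179.7 and 187 CPM after co-treatment (log2 fold change -0.06, SE 0.05, adjusted p = 0.378), and its sign turned both on the TPM scale and with library size alone.

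Of the DNAJC class, DNAJC6 (auxilin), which recruits HSPA8 to clathrin coats, rose most. It measured 15.3, 15.5 and 14.9 CPM in the controls and 23.2, 21.3 and 21.4 CPM in the co-treated libraries (log2 fold change 0.52, SE 0.06, adjusted p = 0.000162). DNAJC2 (zuotin), the J-domain partner of HSPA14 at the ribosome, fell most, with 38.6, 33.5 and 33.6 CPM without treatment and 28.7, 24.1 and 24.0 CPM with it (log2 fold change -0.46, SE 0.08, adjusted p = 0.00168). Both were free of overlap, and DNAJC2 and HSPA14, the parts of the ribosome-associated complex, thus both fell. DNAJC1 and DNAJC24, which serves diphthamide synthesis, rose by log2 fold changes of 0.28 and 0.28 (adjusted p = 0.00385 and 0.0137). The call of DNAJC24 was lost without control replicate 3 (0.22, adjusted p = 0.0534) or co-treated replicate 3 (0.25, adjusted p = 0.0559). DNAJC7 (TPR2), which binds both HSP70 and HSP90, and DNAJC17, a nuclear protein linked to splicing, fell (-0.26 and -0.29, adjusted p = 0.00108 and 0.0221). DNAJC17 was not called without control replicate 1 or 3 or co-treated replicate 1 or 2 (adjusted p = 0.0875, 0.0738, 0.0569 and 0.0789). Its call was lost too with library size alone and on log2(TPM + 1).

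DNAJA1, an abundant cytosolic J-domain protein, went from 552 ± 27.0 to 492 ± 18.0 CPM (log2 fold change -0.17, SE 0.05, adjusted p = 0.0228). The call was lost without control replicate 1 (adjusted p = 0.0876), without control replicate 3 (0.0852) and without the second or the third co-treated library (0.083 and 0.0502), and on log2(TPM + 1) the log2 fold change was -0.03. With library size alone the call was lost too. DNAJA2 was not called (-0.05, adjusted p = 0.436).

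BAG proteins release clients from HSP70 by exchanging its nucleotide, and 5 of the 6 were not called. The 1 called of these 6 genes (16.7%) stands beside 33.7% of all tested genes called in either direction. BAG2, which blocks the ubiquitin ligase STUB1, fell, with 57.6, 62.4 and 57.1 CPM in the controls and 51.5, 46.0 and 46.1 CPM in the co-treated libraries (log2 fold change -0.30, SE 0.06, adjusted p = 0.00282), and its groups did not overlap. It was not called on log2(TPM + 1) (-0.06, adjusted p = 0.748). BAG3, the heat-inducible partner of HSPB8 in selective autophagy, lay at 141, 142 and 148 CPM in the 3 controls against 151, 152 and 149 CPM after co-treatment (log2 fold change 0.07, SE 0.04, adjusted p = 0.25). The co-treated values of BAG3 were all above the controls, by less than the test could call, and it was called higher on log2(TPM + 1) (0.20, adjusted p = 0.00549). BAG4 had the largest positive difference of the family, at 41.8, 46.9 and 42.7 CPM without treatment and 49.5, 46.8 and 46.8 CPM with it (log2 fold change 0.12, SE 0.06, adjusted p = 0.119), and its groups overlapped.

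The transcription factors themselves differed little. HSF1 measured 84.3, 81.2 and 87.0 CPM in the controls and 72.1, 77.1 and 78.2 CPM in the co-treated libraries (log2 fold change -0.15, SE 0.05, adjusted p = 0.036), and HSF2, its paralog, measured 32.9, 31.5 and 31.8 CPM without treatment and 37.6, 34.0 and 34.1 CPM with it (log2 fold change 0.14, SE 0.06, adjusted p = 0.0874). Their groups did not overlap and lay in opposite directions. The call of HSF1 was lost when any library other than control replicate 2 was left out, with adjusted p between 0.0525 and 0.117, with library size alone (-0.09, adjusted p = 0.161) and on log2(TPM + 1) (-0.03, adjusted p = 0.665). It was lost too with no count filter, with the length trend removed and with length and GC trends removed. HSF2 was called higher on log2(TPM + 1) (0.27, adjusted p = 0.0166). HSF1 acts through trimer formation and phosphorylation, which mRNA levels do not show.

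A list of 22 known HSF1 targets, most of them members already described, did not move one way. Of the 21 tested, 3 rose (HSPA1A, HSPA1B and DNAJB1) and 13 fell (14.3% and 61.9%, beside 16.6% and 17.1% of all tested genes), with a median log2 fold change of -0.21. Most of these targets averaged 100 TPM or more, a level at which 52.0% of all tested genes fell and 8.26% rose. On log2(TPM + 1), 5 rose and 8 fell (23.8% and 38.1%, beside 27.3% and 8.09% of all tested genes), with a median of -0.07. With library size alone 5 rose and 11 fell (23.8% and 52.4%, beside 23.0% and 12.5%). HSPA8, HSPH1 and BAG3 were among those not called, and CRYAB was too low to test. The 3 largest falls on the list were those of HSPE1, HSPB1 and SERPINH1, the collagen chaperone (log2 fold change -0.50, SE 0.06, adjusted p = 0.000245). Its summed TPM went from 15127 ± 504 to 14420 ± 347 TPM, with overlapping groups, and its summed CPM went from a range of 15180 to 16404 without treatment to one of 13796 to 14405 with it, within which the abundant HSP90AA1, HSP90AB1 and HSPA8 weigh most.

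Chaperone machinery outside the symbol rule showed falls without rises. Of 43 genes on that list, all tested, 0 rose and 24 fell (55.8%, against 17.1% of all tested genes), with a median log2 fold change of -0.18. Many of them averaged 100 TPM or more, a level at which 52.0% of all tested genes fell and 8.26% rose. The list was chosen with earlier results of these data known. PFDN2, a subunit of prefoldin, which hands nascent actin and tubulin to the cytosolic chaperonin, measured 76.2, 70.0 and 84.7 CPM in the controls and 44.7, 50.8 and 51.5 CPM in the co-treated libraries (log2 fold change -0.65, SE 0.07, adjusted p = 0.000131). RUVBL2, an ATPase of the R2TP complex that works with HSP90 in building large assemblies, measured 212, 206 and 247 CPM in the 3 controls against 136, 157 and 159.6 CPM after co-treatment (log2 fold change -0.55, SE 0.08, adjusted p = 0.000381). GRPEL1, the exchange factor of HSPA9, measured 69.3, 67.1 and 70.4 CPM without treatment and 47.6, 46.5 and 49.8 CPM with it (log2 fold change -0.52, SE 0.05, adjusted p = 3.56e-05), and in all 3 genes the groups were apart. By sets drawn up after the values were seen, 3 of 6 prefoldin subunits, 3 of 4 R2TP subunits and 7 of 13 other HSP90 and HSP70 co-chaperones fell, CDC37, the adaptor for kinases, among them (log2 fold change -0.47, adjusted p = 0.000958). Beside these counts, 17.1% of all tested genes fell, and 52.0% of those at 100 TPM or more, the level of PFDN2, RUVBL2 and CDC37. PTGES3 (p23) and the ubiquitin ligase STUB1 (CHIP) were not called (adjusted p = 0.372 and 0.97). On log2(TPM + 1), 7 genes of the list rose and 13 fell (16.3% and 30.2%, beside 27.3% and 8.09% of all tested genes), and with library size alone 3 rose and 17 fell (6.98% and 39.5%, beside 23.0% and 12.5%).

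Level and direction went together, in these genes as in the table as a whole. Of the 31 members with a mean of at least 100 TPM over the 6 libraries, 3 rose and 20 fell (64.5%), while 52.0% of the 1670 genes at this level fell and 8.26% rose. From 10 to 100 TPM, 4 of 28 members rose and 7 fell (25.0%), beside 21.0% and 19.3% of 7163 genes. Under 10 TPM, 3 of 16 members rose and 2 fell (12.5%), beside 14.2% and 7.57% of 7724 genes. The median log2 fold change of the abundant members was -0.25, that of all genes at their level -0.15. The excess of falls among the members was smaller against genes of like abundance than against all genes. HSPA1A, HSPA1B and DNAJB1 were the 3 that rose at 100 TPM or more.

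**Figure D4:**
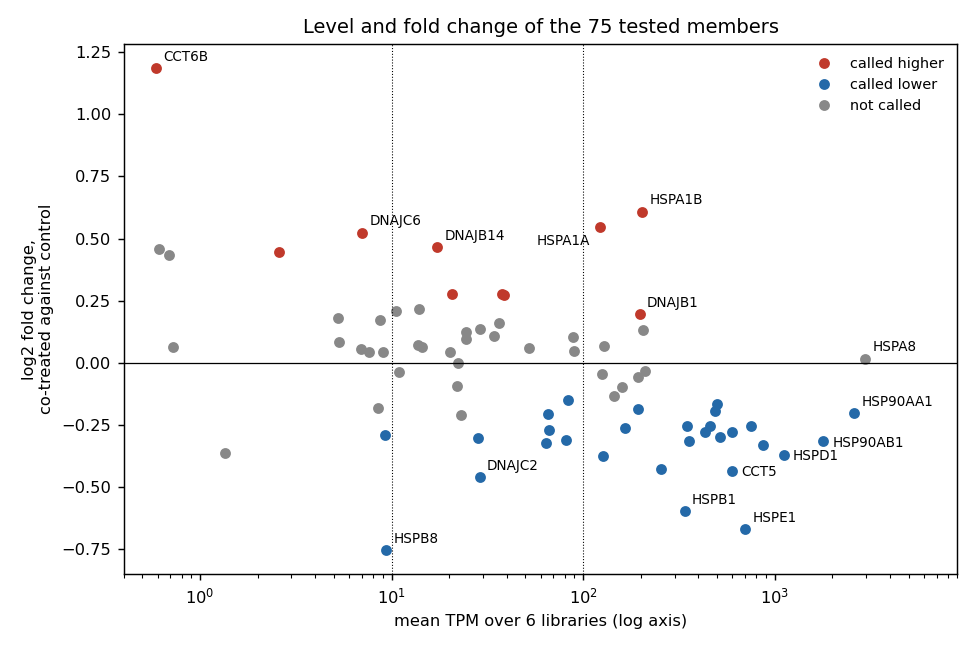
Mean TPM over 6 libraries (log axis) against the log2 fold change, co-treated against control, for each of the 75 tested members, coloured by call; dotted lines mark 10 and 100 TPM. Most members at 100 TPM or more lie below 0, with HSPA1A, HSPA1B and DNAJB1 called higher and HSPA8 near 0.

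Per transcript length, HSPA8 was the most abundant member, at 2818 ± 145 to 3124 ± 67.0 TPM, rank 37 of all genes by control mean, followed by HSP90AA1 at 2658 ± 122 to 2528 ± 153 TPM (rank 43), HSP90AB1 at 1908 ± 54.5 to 1679 ± 71.6 TPM (rank 70) and HSPD1 at 1209.8 ± 29.4 to 1026 ± 52.1 TPM (rank 112). In the controls HSPA8 and HSP90AA1 lay close to each other. All 87 members summed from 19490 ± 401 to 18547 ± 526 TPM, or from 1.95% to 1.85% of all TPM, with control libraries between 19073 and 19872 and co-treated ones between 18060 and 19105, ranges that overlap. In summed CPM the ranges did not overlap, with 22106 to 23298 in the controls and 19631 to 20535 in the co-treated libraries. The sum of the small heat shock proteins went from 404 ± 8.42 to 292 ± 13.2 TPM, and that of the DNAJB genes from 484 ± 4.60 to 571 ± 17.9 TPM, both without overlap.

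Transcript usage, the share of a gene's output held by each of its transcripts, was called different in 2 of 56 member genes with at least 2 tested transcripts (limma diffSplice with the Simes method), beside 2.29% of 9961 genes. The main transcript of HSPH1, NM_006644, held 78.3%, 82.4% and 74.7% of the gene's TPM in the controls and 54.0%, 72.01% and 46.9% in the co-treated libraries (gene-level adjusted p = 0.00925 by limma diffSplice). The shorter NM_001349704 held 7.24%, 8.17% and 11.8%, then 18.1%, 9.95% and 22.0%. For NM_006644 the groups were apart, with a wide spread in the co-treated cells, and for NM_001349704 they overlapped. The call was lost without control replicate 1, 2 or 3 (adjusted p = 0.0914, 0.230 and 0.0654) and with an F test over transcripts (0.0927). In DNAJC28, a mitochondrial J-domain protein under 1 TPM, NM_017833 held 73.5%, 100% and 100% in the controls and 38.0%, 0% and 0% in the co-treated libraries (adjusted p = 0.0278 by limma diffSplice). This rests on few reads, and the call was lost without any 1 of the control libraries (0.0562 to 0.109), and without co-treated replicate 2 or 3 (0.101 and 0.133), and with the replicate number as a block (0.156). Shares of transcripts are themselves estimates, since transcripts of a gene have most of their sequence in common.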

How the data were processed

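RNA sequencing libraries of 3 control and 3 co-treated samples were analysed, grouped by their titles. Trimmomatic 0.38, HISAT2 2.1.0, HISAT, Bowtie2, SAMtools 1.9, StringTie 2.1.3b and GRCh38 are named in the submitters' processing notes, without roles. No source used here gives the kit or strandedness, and a gene's reads cannot be separated from those of one that overlaps it or lies antisense. In the authors' tables of genes and transcripts the read count columns are estimated counts, deposited as whole numbers: all 327227 low transcript values checked equalled the deposited FPKM times length, rounded up (tolerance 0.06), and each gene held the sum of its transcripts. The deposited TPM served for levels between genes and for alternative tests, and the authors' FPKM for that check only. Columns headed Con were taken as controls and those headed Mo as co-treated; no label states this. Gene spans are those of the deposited transcripts.

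Genes were filtered with filterByExpr (minimum count 10), leaving 16557, scaled by relative log expression, which the labels name, and tested with edgeR 4.0.16 (quasi-likelihood, two-sided) in R 4.3.3, with Benjamini-Hochberg adjustment over all of them and a threshold of 0.05. CPM uses the same factors; SE is the absolute log2 fold change over the square root of F. Transcript usage was tested with voom and diffSplice of limma 3.58.1. Alternatives were DESeq2 1.42.0, voom, TMM, scaling by library size alone, no filter or a minimum count of 30, TPM with pseudocounts of 1 and 0.1, removal of length and GC trends (GC known for 89.4% of tested genes), the replicate block and leaving out each library. The sum of HSPA1A and HSPA1B was added after seeing the data. The members and lists were chosen with earlier results of these data known. Values per library are given for a fixed set of heat shock genes and for the largest rise and fall at 1 CPM or more in each role, and for the 3 largest falls on the list of other machinery; other members are named by call.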

Additional observations from a re-analysis of the deposited data

How the results depend on the processing

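The members called higher and lower, 10 and 29 as reported, were 20 and 25 with library size alone, 25 and 19 on log2(TPM + 1), 24 and 19 on log2(TPM + 0.1), 20 and 14 on log2(TPM + 1) with no filter, and 17 and 30 with length and GC trends removed. The shares of all tested genes called higher and lower, 16.6% and 17.1% as reported, were 23.0% and 12.5%, 27.3% and 8.09%, 27.1% and 8.08%, 12.4% and 3.73%, and 16.6% and 19.1% in those settings. For the other chaperone machinery, 0 and 24 as reported, those settings gave 3 and 17, 7 and 13, 8 and 13, 3 and 10, and 2 and 19, and DESeq2 gave 1 and 25. DESeq2 called 16.7% of all tested genes higher and 17.2% lower. Leaving out each library gave 8 to 10 members higher and 25 to 29 lower, and 0 to 1 and 17 to 22 of the other machinery. Deviations from the group mean correlated weakly in same-numbered samples (r = 0.069, 0.00045 and -0.036), and in differently numbered ones (r from -0.052 to 0.059). Whether same-numbered samples share more than a number cannot be told from these values. The replicate block gave 13 members higher and 31 lower, 3 and 26 of the other machinery, and 1 member with changed transcript usage. With this block 19.2% of all tested genes were called higher and 19.3% lower. Usage was called in 2 members as reported, in 1 at a minimum count of 30 or by the F test, and in 0 to 3 without a library. HSPA8 ranged from -0.034 without control replicate 2 to 0.067 without control replicate 3, and DNAJB6, not called, turned to 0.0016 with library size alone, 0.10 on all 3 TPM scales and 0.035 with length and GC trends removed. The causes were not tested. Of the other values for named genes, 477 kept direction and side of the threshold, 23 lost and 17 gained a call. TMM, voom and the stricter count filter kept both counts of members within 1.5 times. Too few counts kept 12 members from being tested, 7 of them at 0 in every library. The standard error ran from 0.24 to 0.40 for the low members HSPA6, HSPA1L, DNAJC12, DNAJC28 and CCT6B.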
